A study of Mus musculus with 6 samples.

Results

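Nuclear receptors are transcription factors whose activity can be set by a small fat-soluble ligand, and 33 of their genes, those outside the ERR and PPAR groups, are described here in mouse retina, of 18193 genes with a probe set of their own. They were chosen by name, with earlier results of these data known, and every probe set annotated to one of them was used. Of these 33 genes, 32 had at least 1 probe set, 91 probe sets in all; Nr1h2, named by no probe set of that annotation, was not analysed here. RNA of retinas from mice of postnatal day 21 was hybridised to 6 expression arrays of short oligonucleotides. The 3 arrays labelled knockout came from ERRβ -/- mice of mixed C57Bl/6 x Sv129 background, and the 3 wildtype arrays from C57Bl/6 mice. Every sample was total RNA of 2 pooled retinas, of mixed sex, from mice on standard chow in a light and dark cycle. Genotype and strain background differ together between the groups and cannot be told apart, and the labels do not say which cells lack ERRβ or how the allele was made. The question is which transcripts of the retina have another level after loss of ERRβ, an orphan nuclear receptor encoded by Esrrb.

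Most receptors of this family share a zinc finger domain that reads variants of the DNA core motif AGGTCA and a domain that holds the ligand and recruits coactivators or corepressors. Steroid receptors bind mainly as homodimers, thyroid hormone and retinoic acid receptors bind as dimers with a retinoid X receptor, and several orphan receptors bind an extended core motif as monomers. In the retina, Rorb and Thrb are known for their part in the differentiation of rods and cones, Nr2f1 and Nr2f2 for patterning of cone opsins and amacrine cells, and Nr2e1 for the control of retinal progenitors and Müller glia.

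Some facts of the whole set of arrays touch every value below. The deposited intensities were scaled array by array, to a trimmed mean near 500 in replicates 1 and 2 of both groups and near 150 in replicate 3 of both groups, so signals are compared only within arrays of 1 scale. Near 150 each group has 1 array, so the groups always stand apart there and only the direction is read. Log2 fold changes are labelled knockout minus wildtype over all 6 arrays. They are given ± SE with 3 arrays a group, from limma with the scaling set as a block. Of 27022 probe sets that passed a filter on low signal, 280 were called higher (1.04%) and 329 lower (1.22%) at an adjusted p under 0.05, together 2.25%; with each array divided by its own median 165 were higher and 119 lower. The brightest Esrrb probe set read 3435, 4012 and 2397 in labelled knockout replicates 1, 2 and 3, against 2951, 2934 and 1771 in wildtype replicates 1, 2 and 3, so it was not lower in the knockout arrays; the sources used here do not say where it lies relative to the deleted part, and the arrays are therefore called labelled knockout. Of 15 lens genes measured, 14 were higher, with summed signals of 66164 and 57419 in labelled knockout, against 4070 and 3062 in wildtype arrays scaled near 500, and of 45783 in labelled knockout, against 7851 in wildtype arrays scaled near 150. Of 11 measured genes of pigment epithelium and choroid 4 were higher, with sums of 40185 and 47339 in labelled knockout, against 34398 and 35223 in wildtype arrays scaled near 500, and 1909 in labelled knockout, against 1191 in wildtype arrays scaled near 150. The 7 measured rod genes summed to 179790 and 201886 in labelled knockout, against 223199 and 221093 in wildtype arrays scaled near 500, and to 33340 in labelled knockout, against 34012 in wildtype arrays scaled near 150, and none was called. The 2 scaling sets differ in more than scale. In wildtype arrays the pigment sum was 34398 and 35223 near 500 against 1191 near 150, while the lens sum was 4070 and 3062 against 7851. A contrast between the sets is therefore not one of scale alone, and its source was not tested. No marker read exactly 0 on any array. The part of lens or pigment cell RNA in the results below was not tested. In tissue RNA, fewer cells of a type and less RNA per cell cannot be told apart.

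Among these receptors most of the called probe sets were those of Nr6a1, the germ cell nuclear factor, known for silencing pluripotency genes in the embryo and for its expression in developing germ cells. It was about 1.78 to 2.34 times higher in labelled knockout arrays by the 3 of its probe sets that were called. The second receptor with a called probe set was Rora, lower in 1 of 9 probe sets (-0.42 on the log2 scale). With a replicate block none of these 4 calls held. The remaining 24 genes with a probe set above the filter had none past the test.

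Of the 91 probe sets, 63 passed the filter on low signal (a mean log2 over the 6 arrays at or above the 40th percentile), and they belonged to 26 genes. Of these 63, 3 were called higher, against 1.04% of all probe sets, and 1 lower, against 1.22%; together this is 6.35% against 2.25%, and the 3 called higher all belong to Nr6a1. With a replicate block 0 of the 63 were called in limma (10 at an unadjusted p under 0.05), beside 93 higher and 107 lower over all probe sets. Without the filter 1 member was called higher and 1 lower, against 0.899% of all 45037 probe sets in either direction. By gene, 2 of 26 had a called probe set, against 3.56% of the 12536 genes with a probe set above the filter. The median log2 fold change of the 63 was -0.10, against -0.02 over all probe sets tested, and 39 of them lay within 0.25 of 0. With each array divided by its own median both medians moved up, to 0.00 for the members and 0.08 over all probe sets. Near 500 the members' median was -0.14 and near 150 it was 0.07, and the sign was the same in both sets for 33 of 63 probe sets. In both scaling sets 8 of the 63 read higher in every labelled knockout than in every wildtype array (12.7%, against 16.4% over all probe sets) and 13 read lower (20.6%, against 17.2%), both shares near the background. In the arrays scaled near 500 alone 13 read higher (20.6%, against 26.9%) and 27 lower (42.9%, against 31.7%). The plot of fold changes by probe set shows these values side by side.

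**Figure D1:**
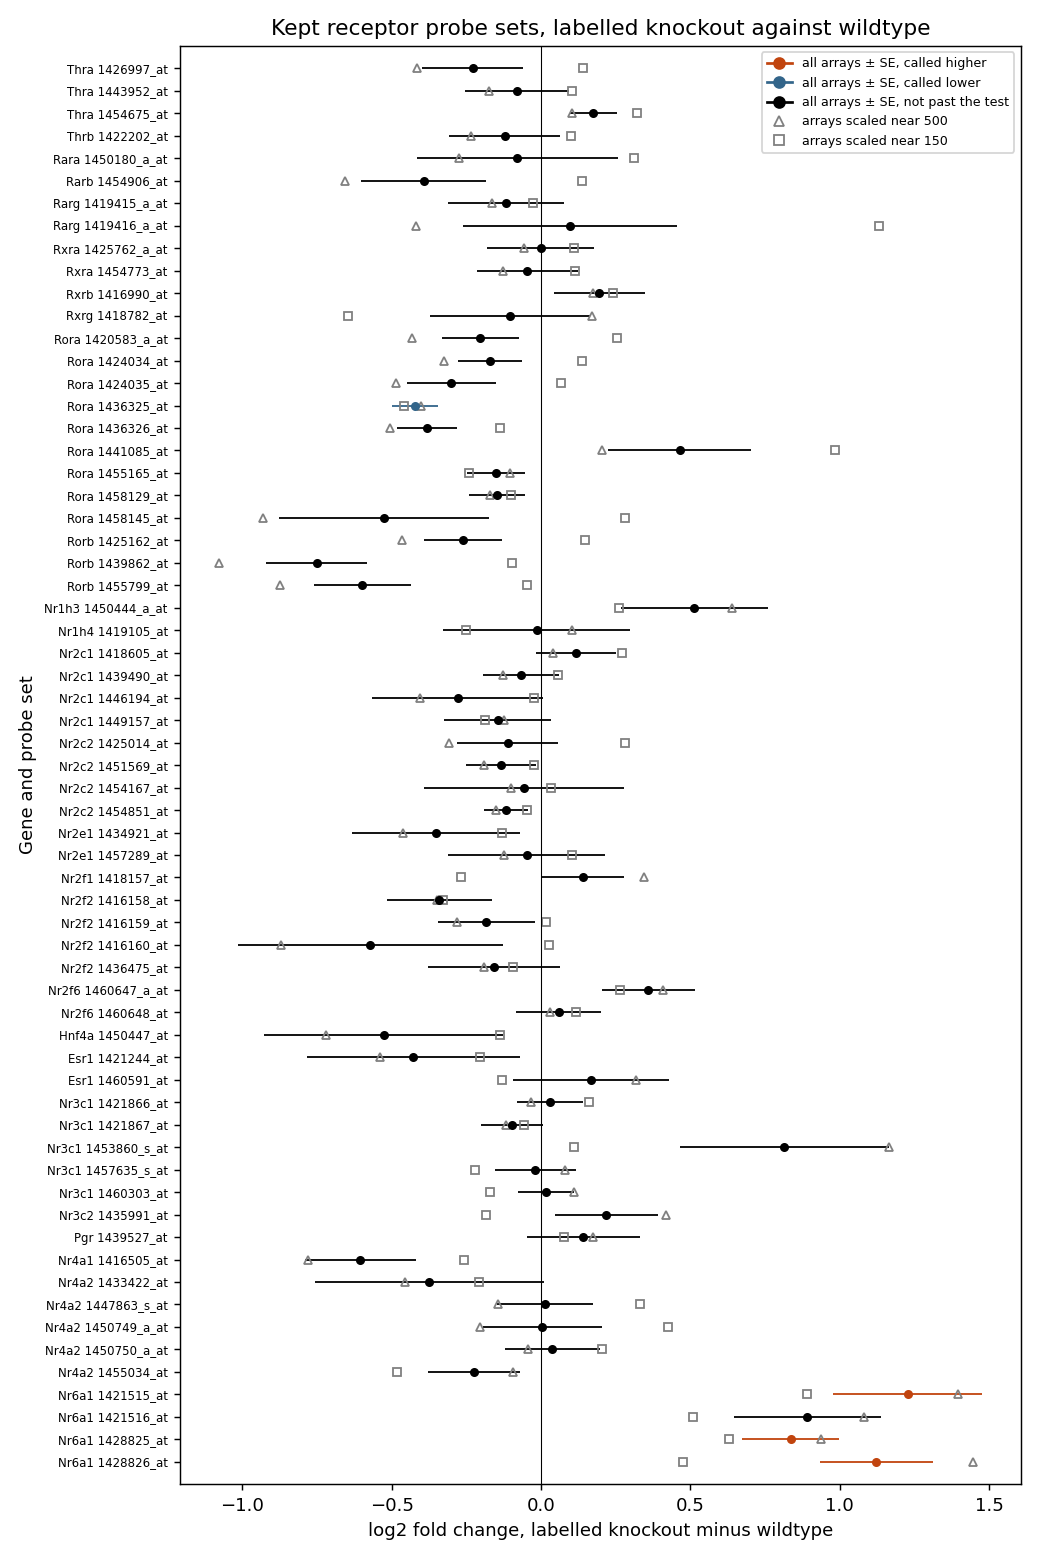
Log2 fold changes (labelled knockout minus wildtype) of the 63 receptor probe sets above the filter, as filled circles with an SE bar over all 6 arrays, and as open marks within the arrays scaled near 500 (triangles) and near 150 (squares). The 4 probe sets of Nr6a1 at the foot lie between 0.84 and 1.23, and the single probe set called lower, of Rora, lies at -0.42.

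The receptors fill the whole range of signal in wildtype retina. Each probe set was ranked among the 45037 non-control probe sets of its own array, which does not depend on the array's scale; a rank describes a probe set's signal and does not order the transcripts of different genes. By the median of the 3 wildtype arrays, 11 probe sets of 5 genes ranked at or above the 90th percentile, 9 between the 75th and the 90th, 30 between the 50th and the 75th, and 41 under the 50th. Those 5 genes were Rorb (best median rank 98.2), Rora (96.9), Thra (94.8), Nr2c2 (93.0) and Nr3c1 (91.8). Rxrb (89.1), Nr4a1 (85.4) and Nr2f1 (83.4) followed. No probe set of Vdr, Nr1i3, Esr2, Nr4a3, Nr5a1 or Nr5a2 passed the filter, which uses the mean over both groups. The best median rank in wildtype was 38.1 for Vdr, 13.7 for Nr1i3, 9.06 for Esr2, 31.8 for Nr5a1 and 24.6 for Nr5a2. For Nr4a3 it was 50.2, so that gene was not at the low end in wildtype. A single probe set stood for 12 genes, and for others the choice of probe set moved the rank widely, as for Thra, whose probe sets had median ranks of 94.8, 68.7 and 63.9. The deposited values hold no detection calls, so a low rank is not read as absence.

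**Figure D2:**
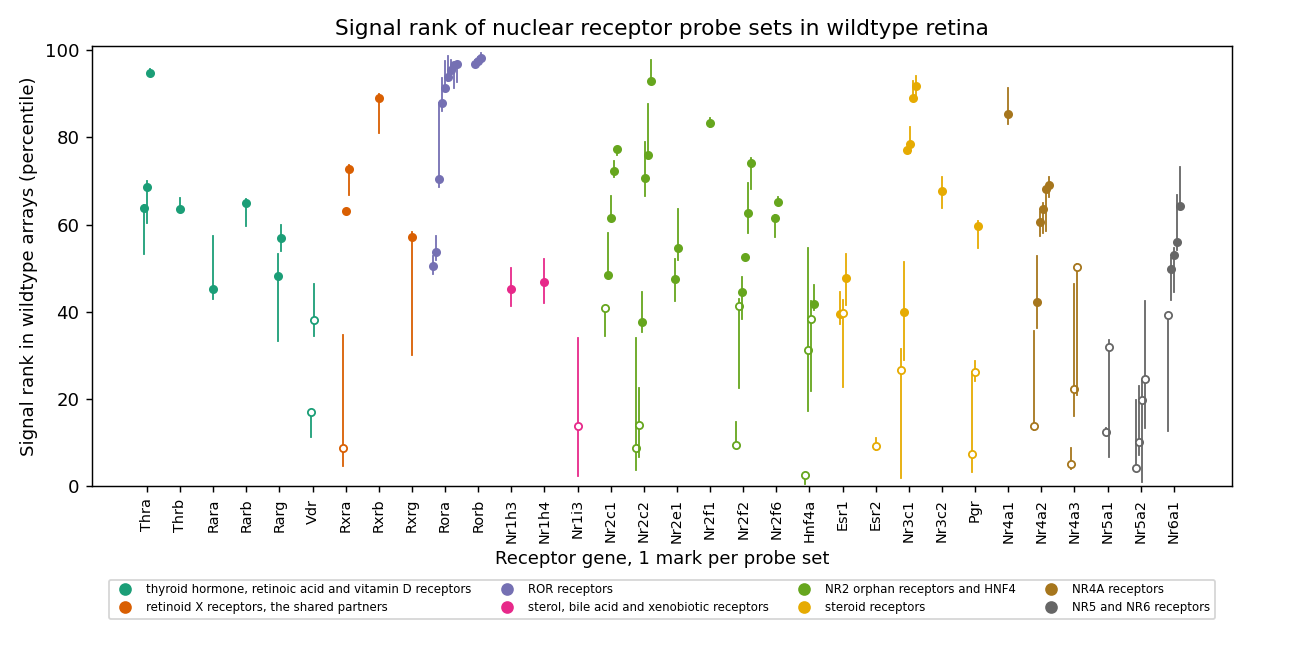
Percentile rank of signal among all non-control probe sets of the same array, for each of the 91 receptor probe sets by gene, in wildtype arrays. Marks are the median of 3 arrays and bars their range; filled marks passed the filter on low signal and open marks did not. Rora and Rorb hold most of the marks above 90, and the NR5 receptors lie under 50 throughout.

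Nr6a1 was measured by 5 probe sets, of which 4 passed the filter, and all 4 read higher in every labelled knockout array than in the wildtype arrays of the same scale. Probe set 1428826_at, the brightest, read 856 and 794 in labelled knockout replicates 1 and 2, against 303 and 301 in wildtype replicates 1 and 2, and 231 in labelled knockout replicate 3, against 166 in wildtype replicate 3. Its log2 fold change was 1.12 ± 0.189 (adjusted p = 0.0214). It was 1.45 near 500 and 0.48 near 150. The direction was thus the same at both scales, with 1 array a group near 150. The test of the difference between the scaling sets did not pass (adjusted p = 0.0853), which does not show that the 2 changes were alike. Probe set 1421515_at read 327 and 293 in labelled knockout, against 153 and 90.1 in wildtype arrays scaled near 500, and 105 in labelled knockout, against 56.9 in wildtype arrays scaled near 150 (1.23 ± 0.249, adjusted p = 0.0391). Probe set 1428825_at read 323 and 355 in labelled knockout, against 169 and 185 in wildtype arrays scaled near 500, and 189 in labelled knockout, against 122 in wildtype arrays scaled near 150 (0.84 ± 0.161, adjusted p = 0.0328). For both of these probe sets the groups did not overlap near 500, and the labelled knockout array near 150 was also the higher one. The fourth, 1421516_at, had 0.89 ± 0.246 and did not pass (adjusted p = 0.094), with 286 and 246 in labelled knockout, against 159 and 98.8 in wildtype arrays scaled near 500, and 100.1 in labelled knockout, against 70.3 in wildtype arrays scaled near 150. The fifth, 1445872_at, lay under the filter and had the opposite sign near 500, with 31.4 and 3.33 in labelled knockout, against 81.1 and 76.6 in wildtype, and 7.45 in labelled knockout, against 6.23 in wildtype, near 150. In the fit of all 45037 probe sets its change was -1.88 ± 1.02 (adjusted p = 0.454), so the 5 probe sets do not all share a direction. The lens list, at a median of 3.68, was higher in the same arrays, and its part in the Nr6a1 result was not tested. Of the 2708 genes with 3 or more probe sets above the filter, 8 (0.295%) had 3 or more called higher. With a replicate block none of the 4 Nr6a1 probe sets passed (adjusted p = 0.0584 for 1428826_at, 0.0636 for 1421515_at, 0.0775 for 1428825_at and 0.128 for 1421516_at). The 3 calls also ended when labelled knockout replicate 1 or 2 or wildtype replicate 1 or 2 was left out (adjusted p from 0.102 to 0.191), and the fold changes stayed above 0 in each of these fits.

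**Figure D3:**
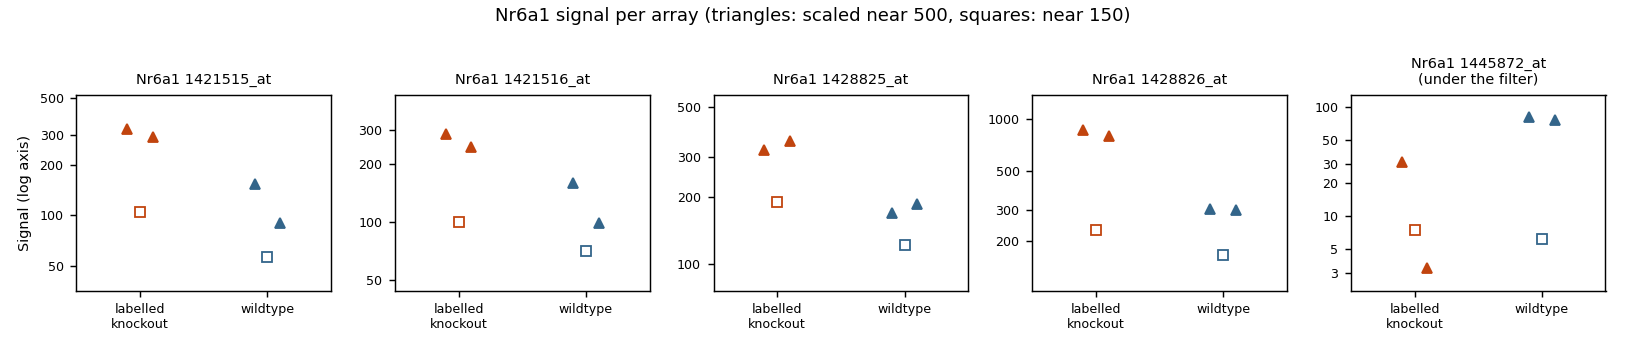
Signal of the 5 Nr6a1 probe sets on each array (log axis), with labelled knockout left of wildtype; triangles are arrays scaled near 500 and squares those scaled near 150. In the 4 probe sets above the filter every labelled knockout mark lies above the wildtype marks of the same shape; in 1445872_at the triangles run the other way.

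Nr6a1 lies on chromosome 2 next to Nr5a1, also a member here, in the order of coding genes of GRCm38.p6, whereas Esrrb lies on chromosome 12. The 2 probe sets of Nr5a1, the steroidogenic factor of adrenal and gonad, were under the filter, at 37.8, 11.8 and 4.52 in labelled knockout, against 13.1, 12.2 and 6.72 in wildtype replicates 1, 2 and 3 for 1418315_at, and at 29.5, 30.6 and 1.99 in labelled knockout, against 61.6, 53.9 and 2.88 in wildtype for 1421730_at. Their fold changes without the filter were 0.30 and -0.80, with adjusted p = 0.913 and 0.662. The non-coding gene Nr6a1os and the microRNA genes Mir181a-2 and Mir181b-2 lie inside the span of Nr6a1, and which strand each probe set reads was not examined. RefSeq gives Nr6a1 a pair of start sites. Both promoter windows, from 250 bases before to 50 bases after the start on the minus strand of GRCm38.p6, are shown because Nr6a1 has 3 of the 4 called probe sets; capitals mark the core motif AGGTCA, or its extended form AAGGTCA, on either strand, so that a match on the opposite strand reads TGACCT.
Nr6a1, inner start, chr2:38784466-38784765: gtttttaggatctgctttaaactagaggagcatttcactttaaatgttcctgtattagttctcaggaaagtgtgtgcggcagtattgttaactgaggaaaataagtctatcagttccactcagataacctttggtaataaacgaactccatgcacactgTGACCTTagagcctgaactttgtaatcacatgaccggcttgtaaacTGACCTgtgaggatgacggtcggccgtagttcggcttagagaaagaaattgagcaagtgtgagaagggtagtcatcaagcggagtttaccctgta
Nr6a1, outer start, chr2:38926412-38926711: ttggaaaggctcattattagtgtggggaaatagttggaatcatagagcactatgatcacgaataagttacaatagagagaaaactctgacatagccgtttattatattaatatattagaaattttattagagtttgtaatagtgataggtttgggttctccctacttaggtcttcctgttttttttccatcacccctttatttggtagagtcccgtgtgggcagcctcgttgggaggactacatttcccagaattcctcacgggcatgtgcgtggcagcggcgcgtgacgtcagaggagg

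The inner window holds 2 core motifs on the opposite strand, whose first bases lie at -91 and -45 from the start, and the first of these is part of an AAGGTCA match. The outer window holds none. AGGTCA was found in 16.3% of all 32851 promoter windows of this length and in 8 of 45 windows of these receptors (17.8%), and AAGGTCA, which contains it, in 4.72% of all and in 3 of 45 (Nr6a1, Rxra and Rxrg). The longer ERR element TCAAGGTCA, which contains both, was in 0.423% of all windows and in none of the 45. The repeats AGGTCAAGGTCA, the element that the Nr6a1 protein is known to bind, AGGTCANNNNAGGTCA and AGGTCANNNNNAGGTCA, which contain the core motif, were in 2, 5 and 3 of all windows and in none of the 45. The 45 windows include none of Thra, Nr3c1 or Nr5a1. The arrays do not tell the start sites apart, and a match in these letters is not evidence of binding.

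The ROR receptors, which bind such a core motif as monomers next to an A and T rich stretch and act in the clock and in photoreceptor development, gave most of the member probe sets ranked at or above the 90th percentile in wildtype retina. For Rora, 9 probe sets passed the filter, 8 with a negative and 1 with a positive log2 fold change. The called one, 1436325_at, read 1433 and 1348 in labelled knockout, against 1829 and 1845 in wildtype arrays scaled near 500, and 969 in labelled knockout, against 1332 in wildtype arrays scaled near 150. The groups did not overlap near 500, and the labelled knockout array near 150 was also the lower one. The change was -0.42 ± 0.0782 on the log2 scale (adjusted p = 0.0301), with -0.40 near 500 and -0.46 near 150. This call ended with a replicate block (adjusted p = 0.0845), with each array divided by its own median (adjusted p = 0.189) and without any 1 of labelled knockout replicates 1 and 2 and wildtype replicates 1 and 2 (adjusted p from 0.103 to 0.188). The 8 other probe sets of Rora did not pass over all arrays. In a fit of the 4 arrays scaled near 500, 1420583_a_at, 1436326_at and 1424034_at passed beside 1436325_at (adjusted p = 0.00421, 0.00636, 0.0271 and 0.0137 in this order). Of these, 1436326_at had -0.38 ± 0.101 (adjusted p = 0.0835), with 1630.2, 1750.3 and 1713 in labelled knockout replicates 1, 2 and 3, against 2566, 2236 and 1883 in wildtype replicates 1, 2 and 3. The probe set with the positive value, 1441085_at, had 0.47 ± 0.239 (adjusted p = 0.31) at a median wildtype rank of 53.7. Over the 9 probe sets the fold changes ran from -0.53 to 0.47, and 8 were negative near 500 against 4 near 150.

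Rora lies on chromosome 9, and its single RefSeq promoter window is shown because it is the other receptor with a called probe set; it holds none of the motifs above, so no letter is in capitals. The window lies on the plus strand of GRCm38.p6.
Rora, chr9:68653536-68653835: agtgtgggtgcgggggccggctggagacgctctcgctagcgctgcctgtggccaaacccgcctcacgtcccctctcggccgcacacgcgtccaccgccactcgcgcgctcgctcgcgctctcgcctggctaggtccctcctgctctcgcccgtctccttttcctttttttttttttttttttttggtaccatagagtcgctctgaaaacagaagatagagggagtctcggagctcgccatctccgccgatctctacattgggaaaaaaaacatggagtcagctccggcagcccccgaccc

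Rorb, an orphan receptor that is needed for rod fate in mouse, had 3 probe sets, all negative and none past the test. Probe set 1439862_at read 2597 and 2348 in labelled knockout, against 5165 and 5267 in wildtype arrays scaled near 500, and 1592 in labelled knockout, against 1701 in wildtype arrays scaled near 150. The groups stood well apart near 500 and differed little near 150. The log2 fold change over all arrays was -0.75 ± 0.168 (adjusted p = 0.0542), with -1.08 and -0.10 within the 2 sets, and the difference between the scaling sets passed its own test (adjusted p = 0.0111, a term called for 1.19% of all probe sets). Probe set 1455799_at read 2964 and 3518 in labelled knockout, against 6586 and 5309.5 in wildtype arrays scaled near 500, and 2362 in labelled knockout, against 2438 in wildtype arrays scaled near 150 (-0.60 ± 0.162, adjusted p = 0.0894; -0.87 and -0.05 within the sets). The third, 1425162_at, had -0.26 ± 0.131 (adjusted p = 0.298), with -0.47 and 0.15 within the sets. In a fit of the 4 arrays scaled near 500, adjusted p was 1.37e-05, 6.43e-04 and 0.0116 for these 3 probe sets. The lower Rorb signal is therefore a difference among 4 arrays that the other 2 do not show at that size. The probe set 1420583_a_at of Rora also passed the test between the scaling sets (adjusted p = 0.044). It read 3070.3, 3229.9 and 636 in labelled knockout, against 4334, 4162 and 534 in wildtype replicates 1, 2 and 3, lower near 500 (-0.43) and higher near 150 (0.25).

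**Figure D4:**
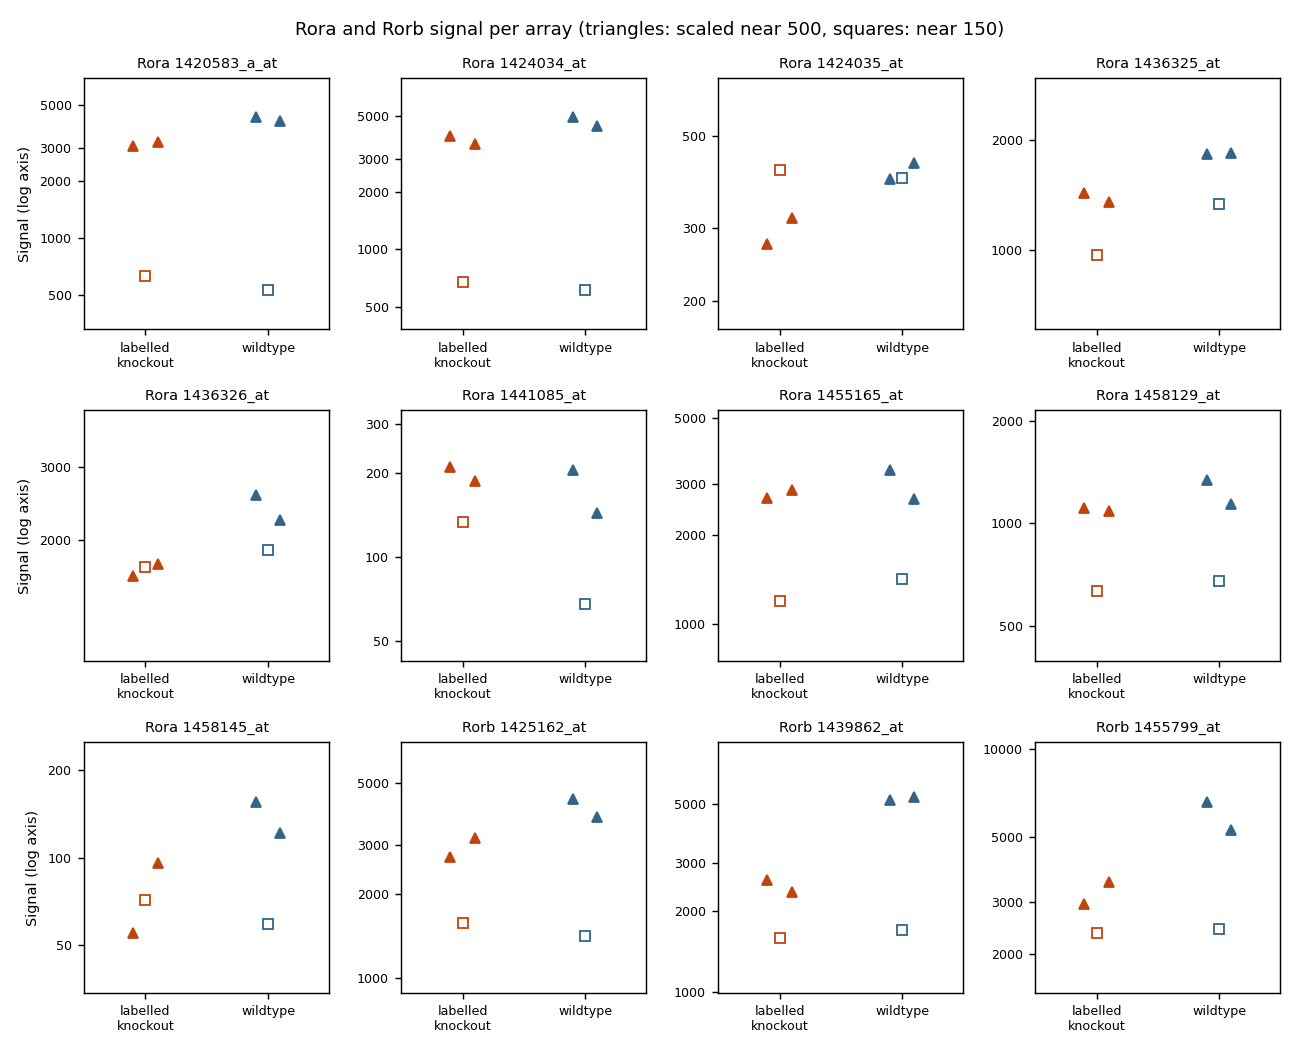
Signal of the 9 Rora and 3 Rorb probe sets on each array (log axis), with labelled knockout left of wildtype; triangles are arrays scaled near 500 and squares those scaled near 150. For the 3 Rorb probe sets the labelled knockout triangles lie below the wildtype triangles while the squares lie close together; Rora 1436325_at is lower at both scales.

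The receptors for thyroid hormone, retinoic acid and vitamin D, which switch genes on when the hormone binds and repress many of them without it, had 8 probe sets above the filter and none past the test. Their median was -0.10, with -0.25 near 500 and 0.14 near 150. The brightest probe set of Thra, the more widely expressed thyroid hormone receptor gene, read 3065 and 3193 in labelled knockout, against 2931 and 2895 in wildtype arrays scaled near 500, and 1134 in labelled knockout, against 908 in wildtype arrays scaled near 150. These groups did not overlap near 500, and the labelled knockout array near 150 was also the higher one. The log2 fold change was 0.18 ± 0.0795 (adjusted p = 0.253). The 2 other probe sets of Thra had -0.23 and -0.08. Thrb, whose product sets the opsin type of cones, read 294, 207 and 127 in labelled knockout replicates 1, 2 and 3, against 291, 289 and 118 in wildtype replicates 1, 2 and 3, and the groups overlapped near 500 (-0.12 ± 0.185, adjusted p = 0.758). The largest value of the class was that of the retinoic acid receptor gene Rarb, -0.39 ± 0.209 (adjusted p = 0.328), with 184 and 227 in labelled knockout, against 316 and 329 in wildtype arrays scaled near 500, and 97.7 in labelled knockout, against 88.8 in wildtype arrays scaled near 150. Its direction differed between the scales. Rara had -0.08 and the 2 probe sets of Rarg -0.12 and 0.10. Vdr, the vitamin D receptor gene, was under the filter, with 57.3, 71.1 and 18.7 in labelled knockout, against 76.1, 107 and 28.9 in wildtype replicates 1, 2 and 3 for the brighter of its 2 probe sets.

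The retinoid X receptors, the shared dimer partners of many of the others, showed no called difference in 4 probe sets above the filter (median -0.02). Rxrb read 1394 and 2201 in labelled knockout, against 1614 and 1494 in wildtype arrays scaled near 500, and 297 in labelled knockout, against 251 in wildtype arrays scaled near 150 (0.20 ± 0.152, adjusted p = 0.503), so the spread between the labelled knockout arrays exceeded the difference of the groups. The 2 Rxra probe sets had -0.05 and -0.00. Rxrg, which marks cones in the retina, read 220.3 and 246 in labelled knockout, against 216 and 198 in wildtype arrays scaled near 500, and 15.0 in labelled knockout, against 23.4 in wildtype arrays scaled near 150 (-0.10 ± 0.268, adjusted p = 0.865). Its wildtype rank was 58.4 and 57.2 in the arrays scaled near 500 and 30.1 in the one scaled near 150, so the 2 sets of arrays did not place this probe set alike.

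Among receptors of sterols, bile acids and foreign compounds, 2 of 3 genes with a probe set passed the filter. Nr1h3, the liver X receptor alpha gene, which responds to oxysterols, read 152 and 144 in labelled knockout, against 88.1 and 102 in wildtype arrays scaled near 500, and 68.9 in labelled knockout, against 57.5 in wildtype arrays scaled near 150. The groups did not overlap near 500, as for 26.9% of all probe sets in this direction. The labelled knockout array near 150 was also the higher one. The change of 0.51 ± 0.246 did not pass (adjusted p = 0.278). Nr1h4, the bile acid receptor gene, had -0.01 ± 0.313. Nr1i3, which senses foreign compounds in liver, was under the filter, with 11.7, 3.47 and 1.10 in labelled knockout, against 62.9, 14.4 and 1.33 in wildtype replicates 1, 2 and 3.

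The NR2 orphan receptors and Hnf4a, a master regulator of liver genes, were the largest class, with 18 probe sets above the filter and none called (median -0.13, range -0.57 to 0.36). The testicular receptor genes Nr2c1 and Nr2c2, whose products form a repressor dimer, had 4 probe sets each above the filter, with values from -0.28 to 0.12 and from -0.13 to -0.06. The brightest of Nr2c2 read 2072 and 1987 in labelled knockout, against 2245 and 2263 in wildtype arrays scaled near 500, and 1358 in labelled knockout, against 1404 in wildtype arrays scaled near 150 (-0.12 ± 0.0752, adjusted p = 0.417). Nr2f1 read 1276 and 1169 in labelled knockout, against 899 and 1028 in wildtype arrays scaled near 500, and 243 in labelled knockout, against 292 in wildtype arrays scaled near 150. It was higher at one scale and lower at the other (0.14 ± 0.138, adjusted p = 0.606). The largest value of the class was -0.57 ± 0.444 (adjusted p = 0.505), in a dim probe set of Nr2f2 that read 29.4, 77.6 and 53.5 in labelled knockout, against 103, 73.9 and 52.5 in wildtype replicates 1, 2 and 3. Without labelled knockout replicate 1, the lowest of these arrays, it was -0.09. The largest positive value was that of 1460647_a_at of Nr2f6, 0.36 ± 0.155 (adjusted p = 0.229), with 345, 352 and 95.3 in labelled knockout, against 260.4, 265 and 79.2 in wildtype. Its second probe set had 0.06. Nr2e1 had -0.35 and -0.05, and the single probe set of Hnf4a above the filter -0.53 ± 0.4 (adjusted p = 0.496).

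The steroid receptors had 9 probe sets above the filter and none called, with a median of 0.03. Nr3c1, the glucocorticoid receptor gene, had 5 of them. Its brightest, 1421867_at, read 1619 and 1546 in labelled knockout, against 1937 and 1516 in wildtype arrays scaled near 500, and 675 in labelled knockout, against 702 in wildtype arrays scaled near 150, and overlapped near 500 (-0.10 ± 0.104, adjusted p = 0.648). Another 3 had values between -0.02 and 0.03. The fifth, the dim 1453860_s_at, had the largest value of the class, 0.81 ± 0.351 (adjusted p = 0.231), with 158, 122 and 66.2 in labelled knockout, against 82.5, 46.6 and 61.3 in wildtype replicates 1, 2 and 3. Its change was 1.17 near 500 and 0.11 near 150. Nr3c2, the mineralocorticoid receptor gene, had 0.22 ± 0.172 (adjusted p = 0.51), with 0.42 near 500 and -0.18 near 150. Pgr and Esr1, the progesterone and estrogen receptor genes, had values of 0.14 for the 1 probe set of Pgr above the filter and of -0.43 and 0.17 for those of Esr1, and Esr2 was under the filter at ranks of 8.13 to 11.1 in wildtype.

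The NR4A receptors are products of immediate early genes that respond to neuronal activity without a known ligand. Nr4a1 read 806 and 843 in labelled knockout, against 1831 and 1094 in wildtype arrays scaled near 500, and 238 in labelled knockout, against 285 in wildtype arrays scaled near 150. All labelled knockout values lay below the wildtype ones of the same scale, and the change of -0.61 ± 0.186 did not pass (adjusted p = 0.119). It was -0.78 in the arrays scaled near 500 alone, where it passed (adjusted p = 0.021), and -0.34 without wildtype replicate 1 (adjusted p = 0.287). Nr4a2, known for dopamine neurons and present in amacrine cells, had 5 probe sets above the filter, from -0.37 to 0.04. The brightest of the 3 Nr4a3 probe sets, all under the filter, read 25.7, 39.9 and 11.7 in labelled knockout, against 137, 136 and 13.4 in wildtype replicates 1, 2 and 3 (-1.46 ± 0.567 without the filter, adjusted p = 0.285).

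Nr5a2, which has a role in steroid and bile acid synthesis, had 4 probe sets, all under the filter, with signals of 2.74 to 69.4 in labelled knockout and of 1.84 to 89.4 in wildtype arrays. Near 500 the groups overlapped in 2 of the 4, and without the filter their log2 fold changes ran from -0.05 to 0.46.

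Genes around the receptors were counted on 8 lists of 119 genes, each gene represented by its brightest probe set. Of 93 measured, 3 were higher, 8 lower and 82 did not pass (11.8% called, against 2.75% of all genes counted this way, of which 1.28% were higher and 1.48% lower), and their median log2 fold change was -0.03. The lists were chosen with earlier results of these data known, so these shares describe the lists and do not test them. On the list of coactivators and corepressors 3 of 24 measured were lower and none higher (median -0.14). Nrip1, a ligand-dependent corepressor, read 1072 and 1106 in labelled knockout, against 1770.3 and 1725 in wildtype arrays scaled near 500, and 842 in labelled knockout, against 1318 in wildtype arrays scaled near 150 (-0.67 ± 0.0788, adjusted p = 0.0038). The acetyltransferase gene Crebbp had -0.44 ± 0.086 (adjusted p = 0.0363) and the SUMO ligase gene Pias1 -0.50 ± 0.0927 (adjusted p = 0.0289). Pias1 read 1649, 1842 and 699 in labelled knockout, against 2510.0, 2739 and 882 in wildtype replicates 1, 2 and 3, and Crebbp read 985, 1083 and 829.6 in labelled knockout, against 1461, 1389 and 1078 in wildtype replicates 1, 2 and 3. With a replicate block Crebbp and Pias1 did not pass (adjusted p = 0.0972 and 0.0656).

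On the list of retinoic acid supply and breakdown 2 of 9 measured genes were higher. Fabp5, a fatty acid binding protein that can carry retinoic acid, read 9676 and 8118 in labelled knockout, against 3268 and 3157 in wildtype arrays scaled near 500, and 3755 in labelled knockout, against 574 in wildtype arrays scaled near 150 (1.88 ± 0.209, adjusted p = 0.00286). The lens list, at a median of 3.68, was higher in the same arrays. Fabp5 had 1.46 near 500 and 2.71 near 150, whereas the lens median was 4.02 near 500 and 3.14 near 150. The part of lens RNA in the Fabp5 result was not tested. Rdh10, which oxidises retinol, read 3328, 3607 and 707 in labelled knockout, against 2292, 2212 and 505 in wildtype replicates 1, 2 and 3 (0.58 ± 0.0803, adjusted p = 0.00882). For both genes the groups stood apart near 500, and the labelled knockout array near 150 was also the higher one.

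On the thyroid hormone list 2 of 10 measured genes were lower and 1 higher. Dio2, which converts thyroxine to the active hormone, read 866 and 1030.3 in labelled knockout, against 1395 and 1413 in wildtype arrays scaled near 500, and 139 in labelled knockout, against 205 in wildtype arrays scaled near 150 (-0.57 ± 0.106, adjusted p = 0.0301). Klf9, a transcription factor gene induced by thyroid hormone and by glucocorticoids, read 8888, 9219.5 and 1605 in labelled knockout, against 11468, 12401 and 2144 in wildtype replicates 1, 2 and 3 (-0.40 ± 0.0694, adjusted p = 0.0227), and 3 of its 6 probe sets above the filter were called lower. Me1, the cytosolic malic enzyme gene, read 3931, 3719.7 and 629 in labelled knockout, against 2038, 2042 and 425 in wildtype replicates 1, 2 and 3 (0.79 ± 0.0922, adjusted p = 0.00359). With a replicate block Dio2 and Klf9 did not pass (adjusted p = 0.0714 and 0.0631).

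On the glucocorticoid receptor target list, which shares Klf9, 2 of 15 measured genes were lower and the median was -0.40, with -0.46 near 500 and -0.18 near 150. Sgk1, a kinase gene induced by steroid hormones, read 3020.0 and 3728 in labelled knockout, against 6606 and 8493 in wildtype arrays scaled near 500, and 749 in labelled knockout, against 1765 in wildtype arrays scaled near 150. The groups stood apart near 500, and the labelled knockout array near 150 was also the lower one (-1.18 ± 0.113, adjusted p = 0.00112, and 4.85e-04 with a replicate block). On the clock list 1 of 12 measured genes was called, Per3, a period gene, with 585, 601 and 225 in labelled knockout, against 944, 800.4 and 307 in wildtype replicates 1, 2 and 3 (-0.52 ± 0.111, adjusted p = 0.0478, and 0.105 with a replicate block). No gene of 13 liver X receptor targets (median 0.10) or of 10 steroid receptor chaperones (median 0.06) passed, and among 7 other nuclear receptors measured 1 was lower. This was Ppara, a fatty acid sensor, with 137, 38.8 and 94.6 in labelled knockout, against 545, 532 and 181 in wildtype replicates 1, 2 and 3 (-2.23 ± 0.484, adjusted p = 0.0497, and 0.0713 with a replicate block). Of the 11 called pathway genes, Fabp5 and Sgk1 passed without any 1 of replicates 1 and 2 of either group. Nrip1 and Me1 missed the threshold without wildtype replicate 2 (adjusted p = 0.0527 and 0.0547). Ppara passed without labelled knockout replicate 2 and not without replicate 1 of that group or either wildtype replicate 1 or 2 (adjusted p up to 0.25). The other 6 did not pass in any of these 4 fits (adjusted p from 0.0552 to 0.217), and all 11 passed without replicate 3 of either group. These calls are those of the brightest probe set; of all the gene's probe sets above the filter, the same call was made for 1 of 6 of Nrip1 and of Per3, 1 of 4 of Crebbp and of Pias1, 1 of 3 of Dio2 and of Ppara, 1 of 2 of Me1, both of Rdh10 and of Fabp5, 3 of 6 of Klf9 and the single one of Sgk1.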

How the data were processed

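The members and gene lists were chosen with earlier results of these data known. Retinal RNA was hybridised after 1 round of oligo dT primed amplification, per the labels' protocols. The deposited values are intensities on a linear scale, 1 per probe set and array, with GCOS 1.4 and MAS5 named in the submitters' processing notes; what each did, and the genome build, are not stated in the labels. Of 45101 probe sets, 64 controls were left out. Groups and replicate numbers came from the titles, with 3 arrays a group; nothing says that pools came from separate animals, so p-values measure only the spread between these samples, which may be technical, and the number of arrays limits the precision.

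Signals were transformed to log2 and filtered at a geometric mean of 54.5. Tests used limma 3.58.1 in R 4.3.3 (two-sided, eBayes with a variance trend, Benjamini-Hochberg over the 27022 probe sets kept). The trimmed mean (2% at either end) set the scaling set. Names came from a platform annotation, in which 34945 probe sets had 1 symbol, 932 several and 9160 none. Promoters are RefSeq's, GRCm38.p6, matched by symbol and used for 30 of the 33 genes. Windows on 1 chromosome were left out for the members but not for the count over all windows. Thra, Nr3c1 and Nr5a1 had no window among those used. Text values in every array were given for genes with a called probe set, for the largest change of each class and for the highest ranks; other members were added after their values were seen.

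Replicate numbers were checked for pairing by correlating the arrays' deviations from their group's mean. Like numbers correlated at 0.57 (number 1), 0.67 (number 2) and 0.843 (number 3), which pairs them by the rule used (each over 0.1). Unlike numbers of the same scale also correlated, at 0.627 (labelled knockout 1, wildtype 2) and 0.607 (labelled knockout 2, wildtype 1). Arrays of different scales correlated at -0.756 to -0.678. Scale was not removed first, so the rule cannot tell pairing by number from a shared scale. Within the arrays scaled near 500 the correlation for number 1 was 0.0153. Alternatives were the blocks, scalings, filters, an added signal, the variance trend and leaving out arrays.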

Additional observations from a re-analysis of the deposited data

How the results depend on the processing

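No fold change of a probe set of Nr6a1, Rora, Rorb or Nr4a1 above the filter changed sign in any alternative fit, but within the arrays scaled near 150 alone 4 of the 8 negative Rora probe sets and 1 of 3 of Rorb were positive. The counts of calls did. Given as higher and lower, the main counts were 280 and 329 for all probe sets, 3 and 1 for the receptors and 3 and 8 for the pathway genes. Limma without a block gave 0 and 0 for all, for the receptors and for the pathway genes (118, 0 and 1 at an unadjusted p under 0.05). With a replicate block the counts were 93 and 107, 0 and 0 (10 receptor probe sets at an unadjusted p under 0.05), and 3 and 2; this block leaves 2 residual degrees of freedom against 3, and ended the calls of receptors and pathway genes named above with its value, and no others of these. With each array divided by its median they were 165 and 119, 3 and 0, and 3 and 3; without a filter 185 and 220, 1 and 1, and 3 and 5; at the 60th percentile 433 and 522, 2 and 2, and 4 and 11; Nr6a1 1421515_at then lay under the filter, and Rorb 1439862_at was called (adjusted p = 0.0405). With 16 added 2 receptor probe sets were lower, Rorb 1439862_at among them (adjusted p = 0.0492). Without a variance trend they were 13 and 6, 0 and 0 (12 at an unadjusted p under 0.05), and 0 and 0. The arrays scaled near 500 alone gave 1605 and 2082, 4 and 8, and 8 and 19. Leaving out each array in turn gave 39 to 1513 higher and 38 to 2209 lower for all probe sets, 0 to 4 and 0 to 8 for the receptors, and 1 to 8 and 1 to 19 for the pathway genes; the high ends came without replicate 3 of 1 group, when the comparison rests on the arrays scaled near 500, and the low ends without a replicate 1 or 2. Among the largest values of each class, leaving out 1 array moved Rarb between -0.66 and -0.23, Rxrb between 0.01 and 0.39 and Nr3c1 1453860_s_at between 0.48 and 1.17. The causes were not tested. Fold changes of dim probe sets, such as those of Nr4a3, Hnf4a and Nr5a2, are imprecise, and no detection limit was given.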
